A study of Drosophila melanogaster with 2 samples.

Results

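The 6 genes described here set or carry out somatic sex in Drosophila: Sex-lethal (Sxl), transformer (tra), transformer 2 (tra2), doublesex (dsx), fruitless (fru) and dissatisfaction (dsf). They were chosen by gene symbol, without reference to their measured values, and all 6 were found among the 17473 gene rows of the count matrices. The data are single-cell RNA counts from brains of larvae in the last (the third) instar, in 2 libraries. The MeOH library held methanol-fixed cells pooled from 7 inbred lines of the Drosophila Genetic Reference Panel (DGRP), namely DGRP-761, DGRP-639, DGRP-502 and DGRP-409 together with DGRP-45, DGRP-382 and DGRP-136. The fresh library, by its labels, held fresh cells of a hybrid based on DGRP-551, although fixation in methanol is part of the deposited protocol of either sample. Strain and fixation therefore changed together, with 1 library for each, and their parts in a difference between the libraries cannot be told apart. The sex of the larvae is not given in the sources used here.

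Sxl stands at the head of the pathway. Its protein, made in female cells, directs the female splicing of tra, and Tra protein acts with Tra2 on the splicing of dsx and fru, which encode transcription factors that give neurons and other tissues their sexual character. Sxl also blocks translation of msl-2, so that only male cells assemble the dosage compensation complex on the X chromosome, of which the noncoding RNAs roX1 and roX2 are parts. The steps are mostly steps of splicing and translation, so RNA of Sxl, tra, dsx and fru is made in both sexes in different forms. dsf encodes a nuclear receptor that neurons need for normal sexual behaviour of both sexes.

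In the annotation on build dm6, Sxl lies on the X chromosome at 7074550 to 7098053 on the minus strand, with 25 transcripts that share 6 distinct ends. tra lies on 3L at 16590059 to 16591050, dsx on 3R at 7924323 to 7967408, fru on 3R at 18414273 to 18545586 and dsf on 2L at 5925937 to 5939261, and tra2 lies on 2R. All but dsf are on the minus strand. The annotated span of tra overlaps l(3)73Ah on the other strand by 74 bases, that of dsx overlaps lds by 169 bases and that of tra2 overlaps Blos1 by 7 bases. The deposited counts are summed per gene, so the male and female splice forms of a gene could not be told apart, and every value below is a sum over forms. Levels are given as CPM, the unique molecular identifiers (UMIs) of a gene scaled to a fixed total of UMIs for each set of cells, and are compared between cells, not between genes.

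Of 3907 MeOH barcodes 2715 were listed in the deposited cell table, and of 2417 fresh barcodes 2341 were listed. The listed cells held 13232791 UMIs in MeOH, with a median of 3564 per cell, and 19752322 UMIs in fresh, with a median of 6598. 11 listed barcodes occurred in both libraries. Neurons made up 64.4% of MeOH cells and 73.6% of fresh cells, counting the clusters with at least 3 of 12 neuron markers at 2 times their level in the other named cells. Clusters 1 and 31 also passed this marker rule but were left without a name, and held 15.2% of MeOH cells and 1.15% of fresh cells. The defining fat body markers summed to at most 0.403 CPM in any annotation value and those of the germ line to at most 19.3 CPM, whereas blood cell markers reached 222 CPM in the cells labelled SUR.

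Sxl was the most widely detected of the 6 genes. It had 3323 UMIs in 1672 of 2715 MeOH cells and 2536 UMIs in 1369 of 2341 fresh cells. Its level was 251 CPM in MeOH and 128.4 CPM in fresh, a ratio of 1.96 with a 95% counting interval of 1.86 to 2.06. tra had 54.6 CPM in MeOH and 49.4 CPM in fresh, a ratio of 1.10 (1.001 to 1.217). tra2 had 44.4 CPM in MeOH and 72.5 CPM in fresh, a ratio of 0.613 (0.556 to 0.675). Thus Sxl stood higher and tra2 lower in the fixed library, while tra differed little.

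Further down the pathway the counts were smaller. fru had 543 UMIs in 232 MeOH cells and 608 UMIs in 184 fresh cells, or 41.0 CPM in MeOH and 30.8 CPM in fresh. dsx had 41 UMIs in 30 MeOH cells and 58 UMIs in 35 fresh cells, or 3.10 CPM in MeOH and 2.94 CPM in fresh. dsf had 28 UMIs in 23 MeOH cells and 20 UMIs in 19 fresh cells, or 2.12 CPM in MeOH and 1.01 CPM in fresh, a ratio of 2.09 (1.14 to 3.91). No member with at least 50 UMIs over both libraries together differed by more than 2 fold between them, where 6.16% of 8046 such genes were higher in MeOH by more than 2 fold and 1.83% were lower. These intervals cover counting error only, and with 1 library per condition the differences have no replicate check.

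Sxl RNA was found in every annotation value with at least 20 cells, 30 of them in MeOH and 28 in fresh. Cells labelled CTX, which carry glial markers, had the lowest Sxl level in both libraries, 81.5 CPM in MeOH (24 UMIs, 95% interval 52.2 to 121) and 17.2 CPM in fresh (5 UMIs, 5.57 to 40.1). Other low levels were those of SUR cells, with 110.5 CPM in MeOH and 47.9 CPM in fresh, and of type II neuroblasts, a class of brain stem cells, with 118 CPM in MeOH and 93.7 CPM in fresh. Neuronal cluster 23 was high in both libraries, at 441 CPM in MeOH and 235 CPM in fresh. Neuronal cluster 27 had the highest MeOH value, 469 CPM, with 155 CPM in fresh, and the Hey+ neurons, which are newly born, had the highest fresh value, with 246 CPM in MeOH and 238 CPM in fresh. Neighbouring values in the order did not differ beyond their counting intervals.

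tra was low in some kinds of dividing precursor cells, but not in all. Cells labelled OL GMC, ganglion mother cells that divide once to give neurons or glia, had 19.2 CPM of tra in MeOH (6 UMIs) and 13.9 CPM in fresh (13 UMIs). Cells labelled OL Type I NB, neuroblasts, had 30.4 CPM in MeOH and 19.7 CPM in fresh. Over all neurons tra had 61.9 CPM in MeOH, and the interval of 56.3 to 67.8 lay above those of OL GMC and of OL Type I NB in that library. Type II neuroblasts had 72.0 CPM in MeOH and 29.8 CPM in fresh, with intervals that did not overlap. Those of CB GMC, with 14.8 CPM in MeOH and 47.7 CPM in fresh, and of Hey+ neurons, with 45.2 CPM in MeOH and 11.6 CPM in fresh, did overlap.

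tra2, whose protein is needed in both sexes, was spread more evenly. It ran from 20.2 CPM (2 UMIs) in cluster 25 to 75.6 CPM in cluster 22 in MeOH, and from 20.5 CPM in SUR to 101 CPM in cluster 27 in fresh. SUR cells were low in both libraries, at 24.0 CPM in MeOH and 20.5 CPM in fresh. The level in OL Type I NB was 49.9 CPM in MeOH and 100.4 CPM in fresh.

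**Figure D1:**
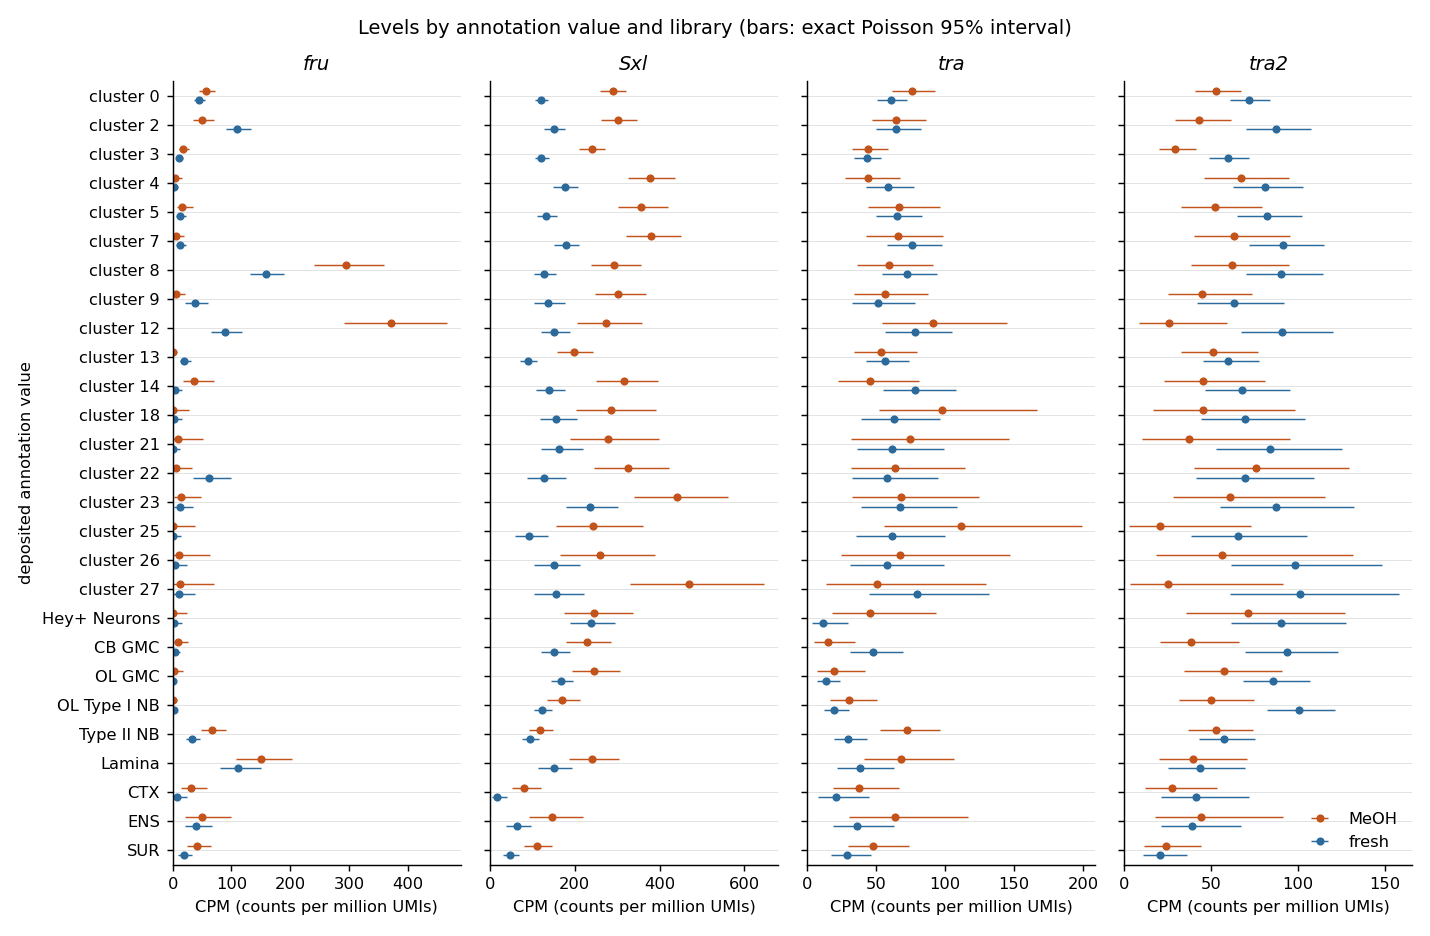
Level in CPM (horizontal axis) of fru, Sxl, tra and tra2 in each deposited annotation value (vertical axis) with at least 20 cells in both libraries, with the MeOH library drawn above the fresh library and bars for the exact Poisson 95% interval. fru is high in clusters 8 and 12 and in Lamina in both libraries. Sxl lies at 81.5 CPM in MeOH and 17.2 CPM in fresh in CTX and is present in all values shown.

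fru had high levels in a few cell groups, but most of its UMIs lay outside the 3 groups named here. Cluster 0 neurons held 71 fru UMIs in MeOH and 93 in fresh, and unnamed cluster 1 held 68 UMIs in 48 MeOH cells. Cluster 12 neurons had 371 CPM in MeOH (73 UMIs in 15 of 56 cells) and 89.1 CPM in fresh (48 UMIs in 8 of 85 cells). Cluster 8 neurons had 295 CPM in MeOH (100 UMIs in 12 of 81 cells) and 159 CPM in fresh (121 UMIs in 18 of 93 cells). Lamina cells had 150.4 CPM in MeOH and 112 CPM in fresh, with fru UMIs in 20 of 43 MeOH cells and in 20 of 45 fresh cells. These 3 groups lay above the library level in both libraries, by counting intervals that did not include it. Such intervals take each UMI as independent and leave out the spread between cells. Of the 100 MeOH UMIs of cluster 8, 41 came from 1 cell.

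The Lamina and the neuronal clusters differed in how fru was spread over cells. In Lamina fru was found in 46.5% of MeOH cells and 44.4% of fresh cells, with 42 UMIs in 20 MeOH cells, while in cluster 8 it was found in 14.8% of MeOH cells and 19.4% of fresh cells with up to 41 UMIs in 1 MeOH cell. Type II neuroblasts had fru UMIs in 42.3% of MeOH cells and 35.3% of fresh cells, at 67.2 CPM in MeOH and 33.0 CPM in fresh. Cluster 2 neurons had 50.1 CPM in MeOH and 110.3 CPM in fresh. At the other end, OL Type I NB had 0 fru UMIs in 65 MeOH cells of median depth 5627 UMIs and 2 UMIs in 82 fresh cells of median depth 11396.5 UMIs. OL GMC had 1 UMI in 98 MeOH cells and 0 UMIs in 157 fresh cells, and shares at or below the 2.44% of OL Type I NB in fresh are read here as background.

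dsx was found in few cells of several kinds. In cluster 12 it had 8 UMIs in 5 of 56 MeOH cells (40.7 CPM) and 11 UMIs in 5 of 85 fresh cells (20.4 CPM), its highest level among annotation values with at least 20 cells in both libraries. Type II neuroblasts had 11 UMIs in 8 of 52 MeOH cells (17.6 CPM) and 9 UMIs in 7 of 51 fresh cells (9.58 CPM). Cluster 31, a small unnamed cluster, had 5 UMIs in 2 of 17 MeOH cells and 10 UMIs in 5 of 14 fresh cells. Cluster 9 neurons had 3 UMIs in 1 of 92 MeOH cells and 7 UMIs in 4 of 79 fresh cells. Cluster 0 neurons had 1 UMI in 1 MeOH cell and 12 UMIs in 6 fresh cells. The unnamed cluster 1 had 8 UMIs in 8 MeOH cells. dsx was at 0 in 22 of the 30 MeOH values and in 19 of the 28 fresh values. Neurons held 39.02% of dsx UMIs in MeOH and 56.9% in fresh.

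dsf was found mostly in 1 cluster. Cluster 8 held 21 of 28 MeOH UMIs in 17 of 81 cells (61.9 CPM) and 18 of 20 fresh UMIs in 17 of 93 cells (23.6 CPM). The other 7 MeOH UMIs fell in 6 cells outside cluster 8, and the other 2 fresh UMIs fell in clusters 3 and 9. dsf was thus most frequent in the cluster where fru was second highest in MeOH and highest in fresh. Of 23 MeOH cells with dsf 4 also had fru (17.4%), against 8.55% of all MeOH cells and 14.8% of those in cluster 8. Of 19 fresh cells with dsf 3 had fru (15.8%), against 7.86% of all fresh cells and 19.4% of those in cluster 8.

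Cells with dsx had fru UMIs more often than cells at large. Of 30 MeOH cells with dsx, 14 had fru as well (46.7%, exact Clopper-Pearson interval 28.3 to 65.7%), against 8.55% of all MeOH cells. Of 35 fresh cells with dsx, 8 had fru (22.9%, 10.4 to 40.1%), against 7.86% of all fresh cells. The cells with dsx were also deeper, with medians of 7009.5 UMIs in MeOH and 9082 UMIs in fresh. Over all cells the medians were 3564 UMIs in MeOH and 6598 UMIs in fresh. Of the cells with dsx, 8 in MeOH and 7 in fresh were type II neuroblasts. In cluster 12 there were 5 in each library. Both groups had fru in a larger share of their cells than the whole library, as the counts above show. The parts of depth and of cell group in the fru share of cells with dsx were not tested. No cell in either library held both dsx and dsf.

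Genes most like each member across annotation values were sought among 5338 genes, over 30 MeOH and 28 fresh values. The measure was the lower of the 2 libraries' Pearson correlations of log2(CPM + 10). The values of a library share that library but differ in depth. Median depth ran from 2828.5 UMIs in GMC to 7414 in neuroblasts in MeOH, and from 4330 in Hey+ neurons to 14443 in neuroblasts in fresh. The part of depth in the correlations was not tested. For Sxl the genes near the top included crp (r = 0.89 in MeOH and 0.89 in fresh), wdb, enc and skd. tra was most like tun (0.73 in MeOH and 0.83 in fresh), followed by CG31038, pico, chn and cdc14, and tra2 was most like CG12106 (0.73 in MeOH and 0.74 in fresh), followed by CkIIalpha, x16, CG15440 and bel. For fru the correlations were lower, with Kap-alpha1 (0.45 in MeOH and 0.44 in fresh), Mst85C, CG42389, CG7049 and pasi2 at the top. Among the members themselves Sxl and tra2 had r = 0.38 in MeOH and 0.73 in fresh, and fru and dsx had r = 0.44 in MeOH and 0.38 in fresh. dsx and dsf had under 100 UMIs in a library and were not ranked.

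Over the 7 lines of the MeOH library the level of Sxl varied beyond counting error. It was 243 CPM in DGRP-45, 271 CPM in DGRP-136, 355 CPM in DGRP-382, 188 CPM in DGRP-409, 259 CPM in DGRP-502, 189.9 CPM in DGRP-639 and 287.5 CPM in DGRP-761, a mean of 256 ± 58.0 CPM (SD, n = 7 lines). The variance over lines was 21.3 times what counting alone gives, a measure that grows with the number of UMIs, and the highest line had 1.89 times the lowest. fru ran from 21.0 CPM in DGRP-45 to 67.8 CPM in DGRP-639, a wider span of 3.22 times, with a variance 11.3 times that of counting. tra ran from 41.5 CPM in DGRP-409 to 71.5 CPM in DGRP-382, with a variance 3.004 times that of counting, and tra2 from 39.9 CPM in DGRP-761 to 50.4 CPM in DGRP-639, within the counting variance at a ratio of 0.381. For dsx and dsf, with at most 10 UMIs per line, the spread over lines was near that of counting.

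The lines also differed in how many of their cells carried roX RNA. Cells with at least 5 UMIs of roX1 and roX2 together, called roX-high, made up 27.1% of DGRP-45 cells, 31.6% of DGRP-136, 28.6% of DGRP-382, 69.0% of DGRP-409, 81.8% of DGRP-502, 68.0% of DGRP-639 and 49.1% of DGRP-761. The lines with the lowest Sxl levels, DGRP-409 and DGRP-639, were among the 3 with the most roX-high cells, while DGRP-502, with the highest share, had an Sxl level near the mean. No label gives the sex of a cell, so the roX classes are not sex labels.

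Members were compared between roX-high cells and roX-low cells, which have at most 1 roX UMI. There were 1427 roX-high and 972 roX-low cells in MeOH, with median depths of 3914 and 3230 UMIs, and 1339 roX-high and 879 roX-low cells in fresh, with median depths of 6533 and 6620 UMIs. The classes differed in makeup. Neurons made up 56.5% of roX-high and 78.5% of roX-low cells in MeOH, and 69.5% of roX-high and 83.4% of roX-low cells in fresh. Neuroblasts made up 7.01% of roX-high and 2.37% of roX-low cells in MeOH, and unnamed clusters 22.8% of roX-high and 3.70% of roX-low cells there. For this reason the test of each member over all cells stands below beside its result in neurons.

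Sxl RNA was lower in roX-high than in roX-low cells in every line. In DGRP-45 it was 166 CPM in roX-high and 273 CPM in roX-low cells, in DGRP-136 246 and 296 CPM, in DGRP-382 272 and 401 CPM, and in DGRP-409 177 and 231 CPM. In DGRP-502 it was 237 CPM in roX-high and 421 CPM in roX-low cells, in DGRP-639 160.2 and 245 CPM, and in DGRP-761 229 and 364 CPM. The levels of the classes overlap between lines, from 160.2 to 272 CPM in roX-high and from 231 to 421 CPM in roX-low cells, but within each of the 7 lines roX-high cells had less. In the fresh library Sxl was 97.8 CPM in roX-high and 171 CPM in roX-low cells, a ratio whose counting interval was 0.526 to 0.620. In fresh neurons it was 95.2 CPM in roX-high and 181 CPM in roX-low cells.

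In edgeR's quasi-likelihood test with the line as block and Benjamini-Hochberg adjustment over 6487 genes, the log2 fold change of Sxl was -0.59 ± 0.08 (SE), adjusted p = 2.89e-04. Of the 4 members tested 2, Sxl and fru, passed this test, both lower in roX-high cells. Of all tested genes 5.18% were called lower and 5.92% higher. The counts of dsx and dsf were too low for the filter, so neither was tested here. Being lower in all 7 lines was found for 4.1% of the tested genes, and being higher in all 7 for 7.83%. In neurons alone the log2 fold change of Sxl was -0.79 ± 0.09, adjusted p = 2.64e-04, in 5462 genes tested by edgeR, of which 0.165% were called lower and 0.256% higher, and 1.37% were lower and 1.34% higher in all 7 lines. Sxl ranked 2 by p there, after the neuropeptide gene CCAP, and was the only member called. By line the Sxl level in neurons was 168 to 256 CPM in roX-high and 266 to 498 CPM in roX-low cells, so that in neurons the classes did not overlap over the lines. An exact two-sided sign-flip test over the 7 lines of log2(CPM + 10) gave p = 0.0156 for Sxl in all cells (mean difference -0.55 ± 0.19, SD) and in neurons (-0.76 ± 0.22), the smallest p that 7 lines allow. Without the line block the neuron difference was -0.82 with an edgeR adjusted p of 0.0815. The median log2 fold change of X-linked genes was -0.01 in both fits, over 998 genes in all cells and 858 in neurons.

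**Figure D2:**
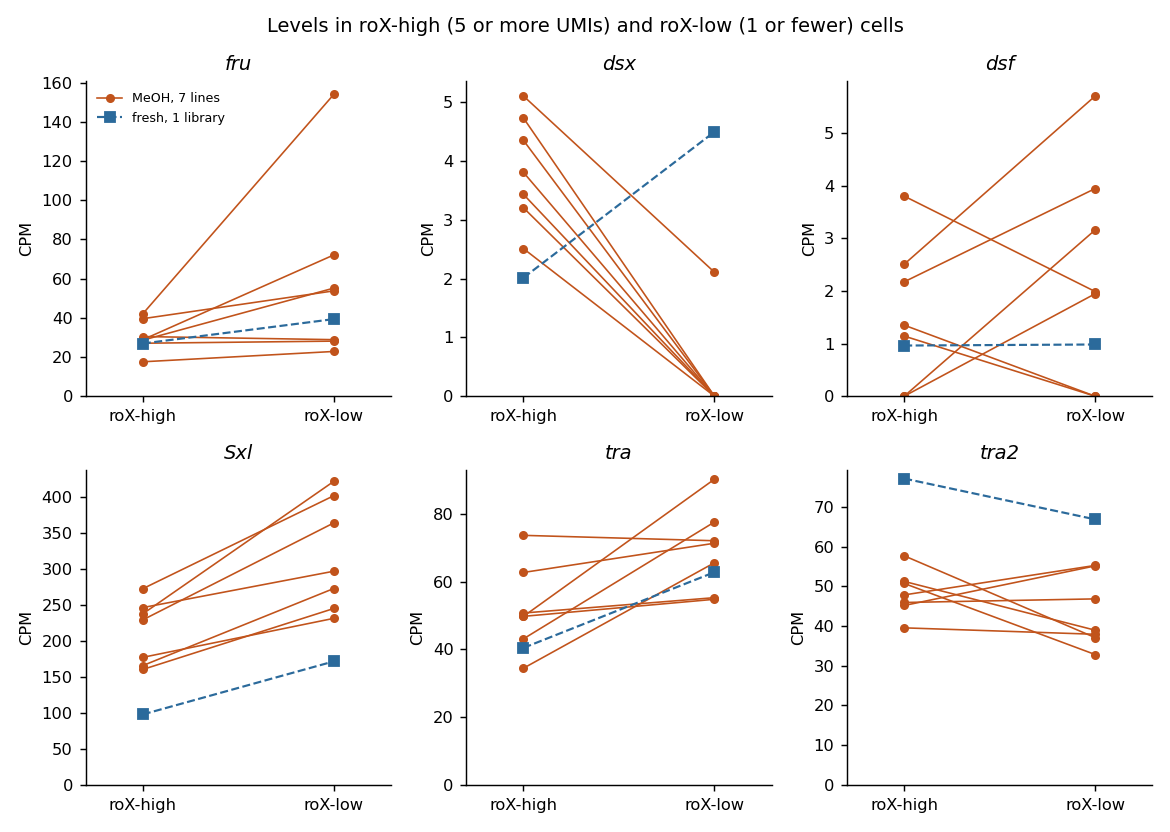
Level in CPM (vertical axis) of the 6 members in roX-high cells (left) and roX-low cells (right), with 1 orange line for each of the 7 DGRP lines of the MeOH library and a dashed blue line for the fresh library. Sxl is lower in roX-high cells in all 7 lines and in fresh, and dsx in roX-low cells is at 0 in 6 lines, while in fresh it is 2.01 CPM in roX-high and 4.50 CPM in roX-low cells.

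The Sxl difference was present in most kinds of cells. Among the 25 annotation values of each library with at least 10 cells of both classes, Sxl was lower in roX-high cells in 20 in MeOH and in 25 in fresh. In cluster 0 neurons it was 181 CPM in roX-high and 408 CPM in roX-low cells in MeOH, and 63.5 and 168 CPM in fresh. In type II neuroblasts it was 74.3 CPM in roX-high and 212 CPM in roX-low cells in MeOH, and 66.2 and 164 CPM in fresh. Some groups differed less or not in 1 direction. SUR cells had 125 CPM in roX-high and 99.4 CPM in roX-low cells in MeOH, and 32.3 and 47.3 CPM in fresh. The unnamed clusters had 257 CPM in roX-high and 267 CPM in roX-low cells in MeOH, a ratio of 0.964 (0.688 to 1.39). Hey+ neurons had 215 CPM in roX-high and 157 CPM in roX-low cells in MeOH, but 189.7 and 256 CPM in fresh. OL GMC had 228 and 249.8 CPM in MeOH and 157 and 160.2 CPM in fresh. All GMC together had 234 CPM in roX-high and 199 CPM in roX-low cells in MeOH, a ratio of 1.18 (0.761 to 1.88). In fresh all GMC had 147 and 195 CPM, a ratio of 0.756 (0.483 to 1.24). With both classes given the same makeup of annotation values, Sxl in roX-high was 0.639 times its roX-low level in MeOH and 0.550 times in fresh.

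At equal depth the share of cells with Sxl followed the same direction. With every cell thinned to 2000 UMIs, which left out no cell, 32.8% of roX-high and 49.1% of roX-low MeOH cells had an Sxl UMI, a difference of -16.3 percentage points (95% interval -20.2 to -12.3). In fresh 17.7% of roX-high and 28.7% of roX-low cells had one, a difference of -11.0 points (-14.6 to -7.37). Before thinning the shares were 56.8% of roX-high and 67.6% of roX-low cells in MeOH, and 50.9 and 68.1% in fresh.

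Across the scale of roX UMIs the Sxl level was lower at 5 UMIs and above in MeOH and at 10 UMIs and above in fresh. In MeOH it was 331 CPM in cells with 0 roX UMIs, 296 CPM at 1, 293 CPM at 2 to 4, 251 CPM at 5 to 9, 209 CPM at 10 to 19, 193 CPM at 20 to 39 and 194 CPM at 40 or more. In fresh it was 171 CPM at 0, 172 CPM at 1, 164 CPM at 2 to 4, 204 CPM at 5 to 9 in only 65 cells, 122 CPM at 10 to 19, 94.96 CPM at 20 to 39 and 80.4 CPM at 40 or more. Fresh cells with 2 to 4 roX UMIs were 28.5% GMC and 48.8% neurons, so their makeup differs from that of either class. Depth differed too, with a median of 3262.5 UMIs at 0 and 13331 at 40 or more roX UMIs in MeOH. In fresh these medians were 6450.5 and 12520 UMIs. The parts of depth and makeup in the trend over roX UMIs were not tested.

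**Figure D3:**
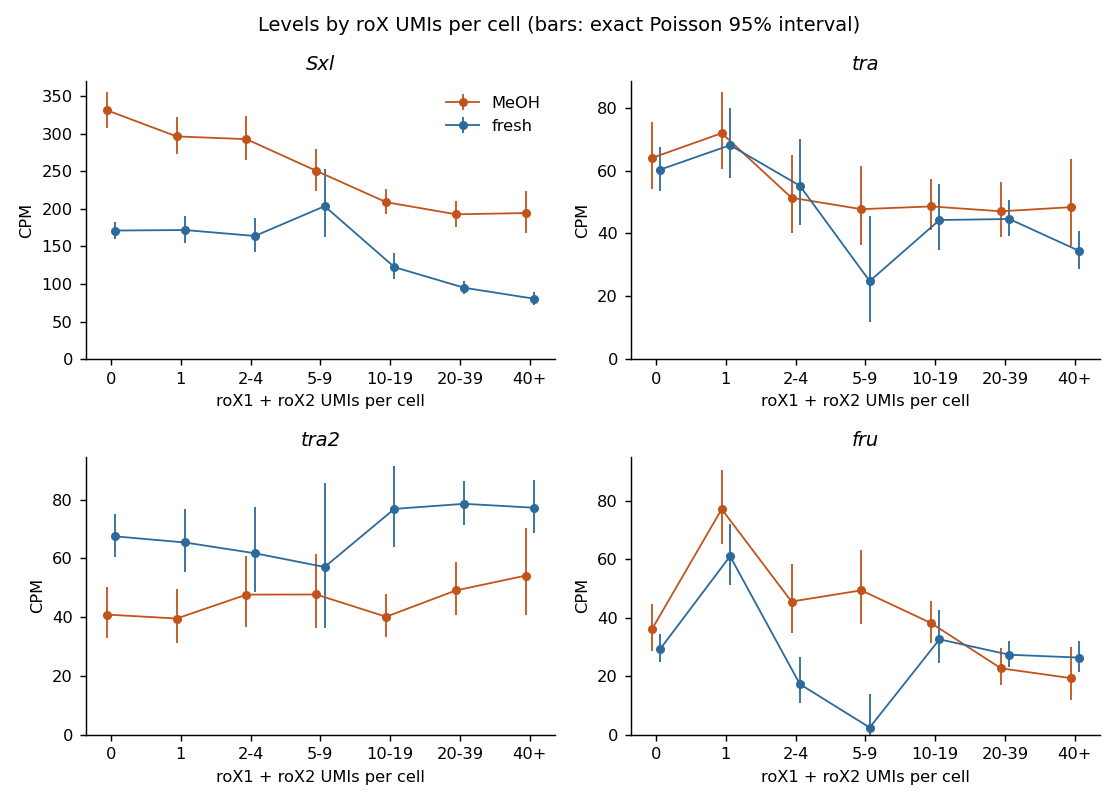
Level in CPM (vertical axis) of Sxl, tra, tra2 and fru in cells grouped by their roX1 plus roX2 UMIs (horizontal axis), for the MeOH and fresh libraries, with bars for the exact Poisson 95% interval. Sxl lies at 331 CPM in MeOH and 171 CPM in fresh in cells without roX UMIs, and at 194 CPM in MeOH and 80.4 CPM in fresh in cells with 40 or more.

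tra was lower in roX-high cells over all cells, with 47.9 CPM in roX-high and 67.7 CPM in roX-low cells in MeOH and 40.5 and 62.8 CPM in fresh. By line it ran from 34.5 to 73.7 CPM in roX-high and from 54.8 to 90.2 CPM in roX-low cells, and it was lower in roX-high cells in 6 of 7 lines, the exception being DGRP-382 with 73.7 and 72.1 CPM. The ranges overlapped. The edgeR test, with Benjamini-Hochberg adjustment, gave a log2 fold change of -0.44 ± 0.15 (adjusted p = 0.0679), which did not pass the threshold of 0.05, while the exact two-sided sign-flip test over lines gave p = 0.0312 (mean difference -0.37 ± 0.36, SD). In neurons tra was lower in roX-high cells in 3 of 7 lines, with a log2 fold change of -0.16 ± 0.21 (edgeR adjusted p = 0.957). The fresh neurons had 52.2 CPM in roX-high and 69.3 CPM in roX-low cells, a ratio of 0.754 with a counting interval of 0.653 to 0.870, and MeOH neurons had 57.5 and 68.5 CPM, a ratio of 0.839 (0.689 to 1.02). Among the 25 annotation values of each library tra was lower in roX-high cells in 16 in MeOH and in 21 in fresh. With both classes given the same makeup of annotation values, tra in roX-high was 0.666 times its roX-low level in MeOH and 0.738 times in fresh, against 0.708 and 0.644 times without this step.

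tra2 did not pass the test. It had 46.1 CPM in roX-high and 40.3 CPM in roX-low cells in MeOH, and 77.1 and 66.9 CPM in fresh. By line it was 39.5 to 57.7 CPM in roX-high and 32.8 to 55.3 CPM in roX-low cells, higher in roX-high cells in 4 of 7 lines, with overlapping ranges. The log2 fold change was 0.15 ± 0.16 (edgeR adjusted p = 0.625) over all cells and 0.04 ± 0.19 (adjusted p = 0.999) in neurons.

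**Figure D4:**
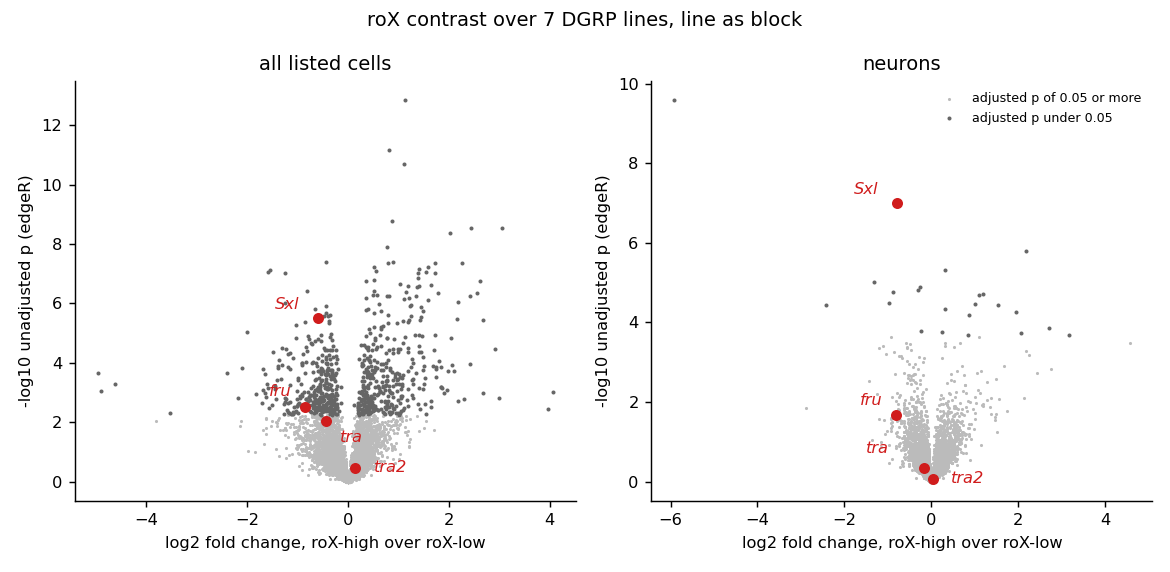
Unadjusted p of edgeR as -log10 (vertical axis) against the log2 fold change of roX-high over roX-low cells (horizontal axis) for all genes tested, in all listed cells (left) and in neurons (right), with the 4 tested members in red. Sxl lies at -0.59 in all cells and at -0.79 in neurons, where it ranks 2 by p and the other 3 members lie among the genes that were not called.

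dsx counts were too low for the filter of the genewise test. With no filter edgeR gave a log2 fold change of 2.75 ± 0.99 over all cells (Benjamini-Hochberg adjusted p = 0.0617) and of 2.53 ± 1.40 in neurons (adjusted p = 0.998), and dsx was called in neither. In MeOH it had 32 UMIs in 24 of 1427 roX-high cells (4.17 CPM) and 2 UMIs in 2 of 972 roX-low cells (0.477 CPM). The ratio was 8.74 with a counting interval of 2.23 to 75.3. Of the 32 UMIs 13 lay in the unnamed clusters, which had 325 roX-high and 36 roX-low cells. With both classes given the same makeup of annotation values, dsx in roX-high was 4.25 times its roX-low level in MeOH. By line dsx had 1 to 8 UMIs in roX-high cells, or 2.51 to 5.10 CPM, and 0 UMIs in roX-low cells of 6 lines and 2 UMIs (2.11 CPM) in those of DGRP-761. In no single line did the counting interval of the ratio lie above 1, and the direction within 6 of the lines is set against a count of 0. The exact two-sided sign-flip test on log2(CPM + 10) gave p = 0.0156, the smallest it can give, for a mean difference of 0.43 ± 0.09 (SD), on a scale that understates changes of low genes, and this p rests on those counts of 0 at unequal depths. In neurons there were 10 UMIs in roX-high and 1 UMI in roX-low MeOH cells, and the test gave an exact p = 0.0938.

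The fresh library went the other way for dsx. There roX-high cells had 23 UMIs (2.01 CPM) and roX-low cells 32 UMIs (4.50 CPM), a ratio of 0.448 with a counting interval of 0.250 to 0.790. With both classes given the same makeup of annotation values the ratio was 0.414. Fresh neurons had 9 UMIs in 7 roX-high cells (1.26 CPM) and 22 UMIs in 9 roX-low cells (3.78 CPM). In cluster 12 the fresh cells had 2 dsx UMIs in 45 roX-high and 7 UMIs in 34 roX-low cells, and the MeOH cells had 6 UMIs in 34 roX-high and 1 UMI in 12 roX-low cells. Type II neuroblasts had 3 UMIs in 32 roX-high and 5 UMIs in 17 roX-low cells in fresh, and 8 UMIs in 29 roX-high and 1 UMI in 17 roX-low cells in MeOH. With 1 fresh library the difference between strains or fixations was not tested.

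fru was lower in roX-high cells over all cells, but not evenly. In MeOH it had 32.6 CPM in roX-high and 55.1 CPM in roX-low cells, and in fresh 26.9 and 39.3 CPM. fru UMIs were found in 8.69% of roX-high and 8.44% of roX-low cells in MeOH, and in 6.12 and 9.67% in fresh. With cells thinned to 2000 UMIs, the difference in share was -1.26 points in MeOH (interval -3.05 to 0.390). In fresh it was -0.803 points (-2.44 to 0.671), and -1.76 points (-3.62 to -0.0731) at 3000 UMIs. Within roX-low cells, fru was 36.0 CPM at 0 and 77.1 CPM at 1 roX UMI in MeOH, and 29.3 and 61.0 CPM in fresh. By line the roX-high level was 17.6 CPM in DGRP-45, 30.4 CPM in DGRP-136, 28.8 CPM in DGRP-382, 27.0 CPM in DGRP-409, 28.6 CPM in DGRP-502, 42.0 CPM in DGRP-639 and 39.5 CPM in DGRP-761. The roX-low level was 22.8 CPM in DGRP-45, 28.9 CPM in DGRP-136, 72.1 CPM in DGRP-382, 28.1 CPM in DGRP-409, 55.1 CPM in DGRP-502, 154 CPM in DGRP-639 and 53.7 CPM in DGRP-761. The ranges overlap, 6 of 7 lines had less in roX-high cells, and DGRP-639 roX-low cells stood far above the others. Of the 78 fru UMIs in those DGRP-639 cells 41 came from 1 cell of cluster 8. Within cell groups the direction was mixed: among 25 annotation values fru was higher in roX-high cells in 13 and lower in 8 in MeOH, and higher in 8 and lower in 13 in fresh. With both classes given the same makeup, fru in roX-high was 0.722 times its roX-low level in MeOH and 0.871 times in fresh, against 0.591 and 0.684 times without this step.

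The edgeR test with Benjamini-Hochberg adjustment gave fru a log2 fold change of -0.85 ± 0.24 (adjusted p = 0.0329), and without DGRP-639 it was -0.49 with adjusted p = 0.146. The call was also lost without DGRP-382 and without DGRP-502. In neurons the log2 fold change was -0.81 ± 0.32 (edgeR adjusted p = 0.513), with 35.3 CPM in roX-high and 39.4 CPM in roX-low neurons of the fresh library. Sxl kept its call in all 7 fits that leave out 1 line, in all cells and in neurons.

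Of the 231 fru UMIs in MeOH roX-low cells 97 lay in cluster 8, in 11 of its 41 roX-low cells (554 CPM). The 29 roX-high cells of the cluster had 0 fru UMIs, which allows up to 29.1 CPM. Of the 97 UMIs 59 came from 3 DGRP-639 cells, 41 of them from 1 cell. The other roX-low UMIs of the cluster came from 4 other lines, 20 from DGRP-136, 5 from DGRP-382, 4 from DGRP-45 and 9 from DGRP-761. In the fresh library the same cluster had 149 CPM in 51 roX-high and 199 CPM in 37 roX-low cells, so fru was not missing from roX-high cells there. Cluster 12 had 318 CPM in roX-high and 262 CPM in roX-low cells in MeOH and 102 and 83.0 CPM in fresh, and Lamina had 109 and 156 CPM in MeOH and 114 and 107 CPM in fresh, with overlapping counting intervals in each case.

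**Figure D5:**
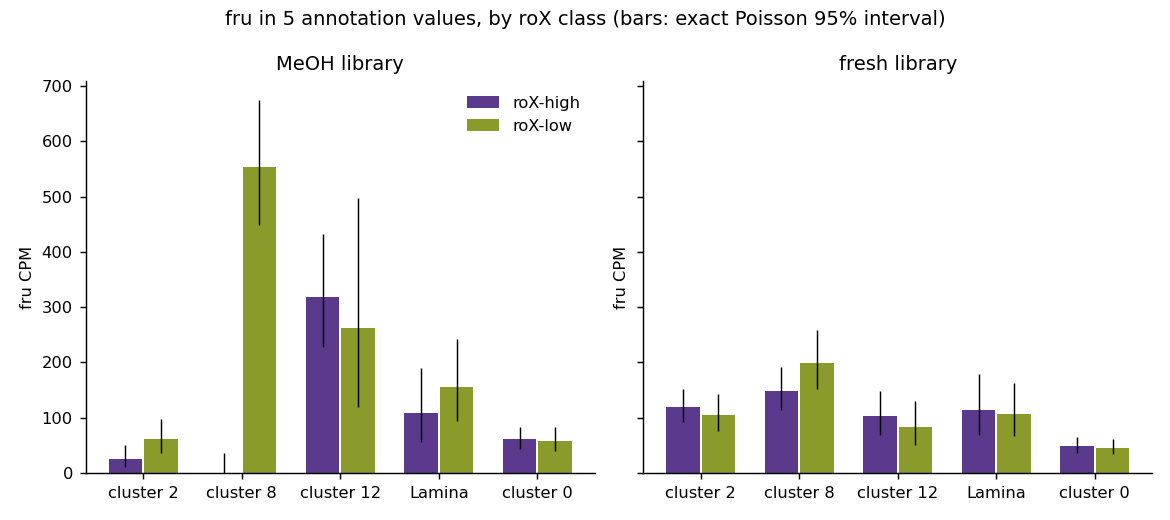
Level of fru in CPM (vertical axis) in roX-high cells (purple, left bar) and roX-low cells (green, right bar) of 5 annotation values, in the MeOH library and in the fresh library, with exact Poisson 95% intervals. In cluster 8 of MeOH the level is 0 in roX-high and 554 CPM in roX-low cells, and in fresh it is 149 CPM in roX-high and 199 CPM in roX-low cells.

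dsf also failed the filter on low counts. It had 11 UMIs in roX-high and 12 UMIs in roX-low cells in MeOH, and 11 UMIs in roX-high and 7 UMIs in roX-low cells in fresh, or 0.963 CPM in roX-high and 0.983 CPM in roX-low fresh cells. In cluster 8 it was found in both classes in both libraries, with 5 UMIs in roX-high and 12 UMIs in roX-low cells in MeOH and 10 and 6 UMIs in fresh. The exact two-sided sign-flip test over lines gave p = 0.375, for a mean difference of -0.09 ± 0.26 (SD). MeOH neurons had 9 dsf UMIs in roX-high and 12 in roX-low cells. The same exact test in neurons gave p = 0.469, for a mean difference of -0.10 ± 0.35 (SD).

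The genes that work with the members were followed as 6 lists. Over all cells the calls of list genes in edgeR's test with Benjamini-Hochberg adjustment were mostly toward higher levels in roX-high cells, where 5.92% of tested genes were called higher and 5.18% lower. Among Tra and Tra2 partners the splicing factors SF2 (log2 fold change 0.40 ± 0.07, SE) and B52 (0.52 ± 0.07) rose, and the kinase gene Doa, which did not pass the test, had 0.18. Of 13 Sxl splicing partners and m6A factors 3 rose, nito (0.55 ± 0.16), U2af50 (0.36 ± 0.10) and U2af38 (0.48 ± 0.10), with a list median of 0.26 against -0.02 over all genes tested. Of 6 tested genes of the X signal and early regulation of Sxl 4 rose, with a list median of 0.34. These were dpn (3.05 ± 0.23), da (0.39 ± 0.10), emc (0.37 ± 0.07) and gro (0.31 ± 0.09), and dpn is also a defining neuroblast gene. Whether they act on Sxl in these cells was not tested.

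Of 5 genes whose products act with Fru or Dsx 3 rose over all cells, HDAC1 (0.36 ± 0.09), lola (0.52 ± 0.06) and the gene of the heterochromatin protein HP1a (0.43 ± 0.06), with a median of 0.36. Of 4 tested genes described as Fru or Dsx targets bab1 fell, by 0.76 on the log2 scale, and bab2 (-0.33), robo1 (-0.38) and tei (-0.09) did not pass the test, with a list median of -0.36. msl-2, the Sxl target whose protein starts dosage compensation, had a log2 fold change of 0.89 ± 0.28 (edgeR, Benjamini-Hochberg adjusted p = 0.0620) and did not pass, nor did msl-1, mle or Unr, for a list median of 0.02. In neurons 0 genes of these lists were called, although da, nito, msl-2 and bab1 had log2 fold changes of 0.37, 0.50, 0.67 and -0.59 there, and dpn was not tested, where 0.421% of all tested genes were. The list medians there were 0.11 for the Sxl partners, 0.07 for the X signal and early Sxl regulators and 0.09 for the Fru and Dsx cofactors. They were -0.29 for the targets and -0.15 for msl-2 and its partners, against -0.01 over all genes tested. The roX classes of all cells differ in their shares of neuroblasts and GMC, as given above, and the part of this in the list values was not tested beyond the neuron values.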

How the data were processed

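Single-cell libraries were made with 10x 3 prime chemistry, per the labels. The deposited matrices hold counts of UMIs per gene and barcode, made by the authors with Cell Ranger, Seurat and build dm6, per the submitters' processing notes (versions not given in the sources used here). DGRP lines and cell annotation were used as deposited, and no doublet caller was run. A further deposited matrix of demultiplexed MeOH cells equalled the first in all its 2937 columns.

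Counts were summed per annotation value, line or roX class. CPM values carry exact Poisson 95% intervals, and shares of cells carry Clopper-Pearson ones. Intervals cover counting error only. Level 0 allows up to 3 counts. Line sums by roX class (at least 10 cells each) were tested with edgeR 4.0.16 in R 4.3.3 (filterByExpr, TMM, line as block, Benjamini-Hochberg adjusted p under 0.05 over all genes tested). roX1 and roX2 were left out of the tests. The 7 lines shared 1 library, so p-values measure the spread between lines within it. Single values used exact sign-flip tests (pseudocount 10 CPM). On simulated data 72.9% of genes changed 2 fold and 98.0% of those changed 4 fold were called.

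Clusters with only a number were called neurons by their markers, except clusters 1 and 31. Named besides the members are the 5 genes most like each, and list genes past the threshold or, otherwise, up to 4 of the highest in each list. 1 list gene, os, could not be matched to 1 row, and some genes that the rules select are not reported here. The members, lists and cell classes were chosen with earlier results of these data known. Alternatives covered DESeq2 1.42.0, filters, scaling, the block, neurons only, other roX limits, thinning and leaving out lines. The alternatives within neurons were chosen after seeing the data.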

Additional observations from a re-analysis of the deposited data

Results flagged for a closer look

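Over the 7 lines fru in roX-low cells had 1 line far from the rest, DGRP-639, with 154 CPM against 72.1 CPM in the next line. Of the 78 fru UMIs behind that value 41 came from 1 cell. dsx in roX-low cells was marked in the same way for DGRP-761, with 2.11 CPM from 2 UMIs and 0 in the other 6 lines, but with 6 values at 0 any count in the seventh line is marked, so this says nothing of that line. Of 24 sets of line values examined 2, this one included, were marked, where chance marks about 1 in 20. For dsx the CPM ratio of roX-high to roX-low cells was 0.448 in the fresh library, from UMIs in 18 of 1339 and 15 of 879 cells. The MeOH library had 32 UMIs in roX-high and 2 UMIs in roX-low cells, with 0 UMIs in the roX-low cells of 6 lines. No test of this contrast between MeOH and fresh was made.

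Barcodes left out of the deposited cell table also held the members. In the 1192 such MeOH barcodes fru had 43.2 CPM, dsx 3.06 CPM, dsf 1.02 CPM, Sxl 265 CPM, tra 49.7 CPM and tra2 50.03 CPM. In the 76 such fresh barcodes fru had 48.5 CPM, dsx 8.61 CPM, Sxl 104 CPM, tra 40.5 CPM and tra2 58.3 CPM, and dsf had 0 UMIs, where 3 counts would be 0.861 CPM. The dsx value of the unlisted fresh barcodes, with 30 UMIs, had a counting interval of 5.81 to 12.3 CPM, above the 2.94 CPM of the listed fresh cells. Why these barcodes are not in the table is not given in the sources used here.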

How the results depend on the processing

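Sxl stayed lower in roX-high cells under each alternative run, with adjusted p of 7.67e-10 to 0.0337 over all cells; leaving out 1 line gave -0.67 to -0.55. In neurons it was -0.88 to -0.74 without 1 line, and -0.82 with no replicate block (adjusted p = 0.0815). The block pairs the classes of a line; without it 188 genes were called higher and 69 lower over all cells, and 1 and 0 in neurons with 0 members called. No paired analysis was possible between the libraries because each condition has 1 library. fru lost its call under DESeq2 (-0.77), no replicate block (-0.90), neurons only (-0.81), without cluster 1 (-0.90), roX limits of 10 or more against 0 (-0.31) and thinning (-0.96), and spanned -1.02 to -0.49 without 1 line; the cause was not tested. In neurons fru passed with no filter (-0.79) and spanned -1.06 to -0.22 without 1 line. tra passed with no filter (-0.44) and spanned -0.51 to -0.37 without 1 line, and in neurons -0.31 to 0.0019, the last without DGRP-136. tra2 was -0.42 after thinning and -0.13 in thinned neurons. The thinned fits set the roX classes anew from the thinned counts, so cells changed class as well as depth. The shares of cells at equal depth kept the original classes. Without 1 line tra2 spanned 0.03 to 0.24, and -0.11 to 0.16 in neurons, with -0.11 without DGRP-136 and -0.0056 without DGRP-45. Members called were 1 under these 6 settings that end the fru call, 1 to 2 without 1 line, and 2 in neurons with no filter.

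Genes called higher and lower over all cells numbered 215 and 191 with DESeq2, 204 and 200 with roX limits of 10 against 0, 50 and 95 after thinning and 14 and 9 in neurons; 509 were called lower with no filter. In neurons DESeq2 called 5 higher, no filter 68 and 47, and roX limits of 10 against 0 gave 8 and 5. Leaving out 1 line gave 260 to 327 higher and 225 to 298 lower, and 4 to 21 and 4 to 14 in neurons. In the exact test the neuron means were -0.53 for fru (p = 0.219), 0.40 for dsx (p = 0.0938), -0.11 for tra (p = 0.641) and -0.045 for tra2, and roX limits of 10 against 0 gave -0.068 for fru (p = 0.812) and -0.28 for tra (p = 0.234). Without 1 line those means were -0.60 to -0.51 for Sxl, -0.69 to -0.40 for fru, -0.43 to -0.30 for tra, 0.08 to 0.20 for tra2, 0.41 to 0.45 for dsx and -0.14 to -0.04 for dsf, where 6 lines allow no p under 0.0312.

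At 2000 UMIs per cell the shares of cells in MeOH were 4.49% for fru, 0.405% for dsx, 0.442% for dsf, 39.9% for Sxl, 10.1% for tra and 8.18% for tra2, and in fresh 3.16%, 0.427%, 0.214%, 22.4%, 9.61% and 14.3%. At 3000 UMIs roX-high minus roX-low shares were -0.532 points for tra in MeOH, and in fresh -15.6 for Sxl and 5.52 for tra2; at 1500 UMIs dsf in fresh had -0.153. With all barcodes fresh fru was 33.4 CPM. Depth limits dsx and dsf, whose levels of 0 in a cell group do not show that the RNA was absent.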
